A study of Gallus gallus and Anas platyrhynchos and Coturnix japonica with 11 samples.

Results

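Duck was compared with chicken at HH20, the Hamburger-Hamilton stage at which the embryonic faces of the birds still look alike. The comparison used 4 of the 11 miRNA-seq libraries of the series, chosen by species and stage: the first and second duck samples at HH20 and the first and second chicken samples at HH20. Every library came from the mesenchyme of the frontonasal prominence (FNP), the swelling between the nasal pits from which the upper bill grows. Each first sample pooled 40 embryos and each second sample pooled 5. All embryos were untreated, of domestic breeds, from eggs of the same farm incubated at 37°C, and in both species dispase and needles were used to take away the surface ectoderm and the forebrain neuroectoderm. The study describes the FNP mesenchyme as purely neural crest. The mesenchymal miRNAs miR-199 and miR-199* were well measured in all 4 libraries. Their summed level was 6277 to 8638 PMMR in duck and 8325 to 8378 PMMR in chicken. Markers of other cell types were also read in all 4 libraries, as given below. PMMR is the normalised read count of a miRNA, its reads scaled to a common library total. Sequencing depth ran between 3372762 and 9261159 reads per library. At that depth 1 read equals 0.108 to 0.296 PMMR, and no miRNA was at 0.

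A miRNA is an RNA of about the length of a short primer that is cut from a hairpin and guides a silencing complex to mRNAs. Pairing rests mostly on its seed, bases 2 to 8 from the 5′ end, so that miRNAs with the same seed share many possible targets. Either strand of the hairpin can be loaded, and the strand that is usually rarer carries an asterisk. In mice, loss of the miRNA-processing enzyme Dicer from the neural crest removes most of the facial skeleton.

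The sequences of the 13 miRNAs that passed the test between duck and chicken are printed below, as the deposited files list them with T written as U, because the differences described here rest on reads matched to these letters. The 3 partners miR-146a, miR-27b and miR-34a are added since they carry the seed of a listed miRNA. Capitals mark the seed. The first 3 groups of lines each share a seed.
miR-146b: uGAGAACUgaauuccauaggcg
miR-146a: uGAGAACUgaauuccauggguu
miR-34c: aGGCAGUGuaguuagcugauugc
miR-34a: uGGCAGUGucuuagcugguuguu
miR-27a: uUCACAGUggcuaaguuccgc
miR-27b: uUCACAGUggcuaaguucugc
miR-30a-5p: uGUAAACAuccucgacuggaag
miR-33: gUGCAUUGuaguugcauugc
miR-1552-5p: uUAGUGCGcgguaagcuagggug
miR-1662: uUGACAUCaucauacuugggau
miR-200a: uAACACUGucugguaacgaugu
miR-19a*: gUUAGUUUugcauaguugcac
miR-184: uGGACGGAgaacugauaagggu
miR-3529: aGGCAGACugugacuuguugu
miR-215: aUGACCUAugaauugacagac
miR-2970: gACAGUCAgcaguuggucug
The reads of both species were matched to chicken, human or zebra finch sequences with up to 2 mismatches. Among the 13, miR-27a is listed under its human name and miR-2970 under its zebra finch name, the others under chicken names. Differences between duck and chicken in the mature sequences were not tested. Of all sequences listed, 62 lie within 2 mismatches of another on the list. Reads of such pairs can be counted for either or for both. Among the 13 the sequences near another are miR-27a, which is near miR-27b, then miR-215, near miR-192, and miR-30a-5p, near both miR-30e and miR-30d. miR-193a* and miR-193b*, listed with the same sequence, had the same PMMR in every library. Near-identical entries are counted one by one below, though they may not be separate measurements.

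By limma's moderated test statistic, the leading differences at HH20 were the high levels of miR-146b and miR-34c in duck and the low level of miR-184 there. With limma on log2(PMMR + 1) and Benjamini-Hochberg adjustment over all measured miRNAs, 9 miRNAs were higher in duck, a percentage of 4.84, and 4 were lower, a percentage of 2.15. At an unadjusted p under 0.05 the count was 38. The 13 calls became 2 without the first duck sample, 4 without the second duck sample, 7 without the second chicken sample and 16 without the first chicken sample. Such a fit leaves 1 species with a single sample, which is assumed to vary like the other species. Libraries of the species did not overlap for 72 miRNAs that were higher in duck (38.7%) and for 19 that were lower (10.2%). Of all miRNAs, 25 exceeded 15 PMMR in their highest library and were at least 2-fold higher in duck in both the first and the second samples (13.4%), and 6 did so and were at least 2-fold lower in both (3.23%). All 13 miRNAs that passed limma were among these.

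Duck values stood above chicken values in general, and the single differences are to be read against that shift. The median log2 difference of duck minus chicken over all miRNAs was 0.35. The listed miRNAs took 76.0% and 70.0% of the reads in the first and second duck samples, against 61.9% and 53.5% in the first and second chicken samples, and when PMMR was rescaled to the reads on listed miRNAs the median was 0.0297. With each library centred on its own median, 2 miRNAs passed as higher in duck and 4 as lower, so that 33.3% of the calls were higher ones, against 69.2% as deposited. Those 6 were miR-146b, miR-34c, miR-184, miR-3529, miR-215 and miR-2970. The libraries then did not overlap for 48 miRNAs higher in duck and 36 lower.

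The count also moved with the sample number as a term in the model. In both species the first samples pooled 40 embryos and the second 5. The first samples of both species used RNA that the authors had already analysed in an earlier study. It is not given whether same-numbered duck and chicken samples were handled together. With the sample number as a replicate block, limma called 43 miRNAs higher in duck (23.1%) and 12 lower (6.45%), and all 13 calls of the fit without the block were among these. That fit leaves 1 residual degree of freedom per miRNA and takes its spread from the trend across miRNAs. In the other direction, a fit that also took its spread from the 4 duck and chicken samples of HH25 called 0 miRNAs by limma, with 23 at an unadjusted p under 0.05 and a lowest adjusted p of 0.102 for miR-146b and miR-3529.

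**Figure D1:**
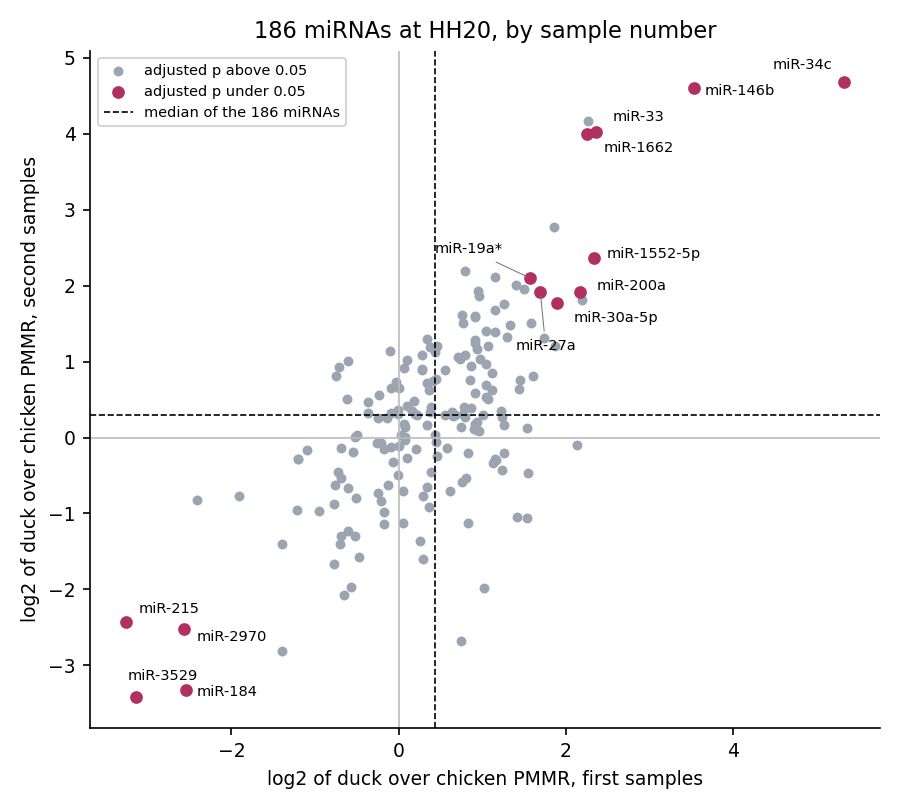
Each point is 1 miRNA at HH20, with the log2 ratio of duck to chicken PMMR in the first samples on the x axis and in the second samples on the y axis. The 13 miRNAs past the limma test are in red and lie in the corners where both ratios point the same way, and the dashed lines mark the medians of all miRNAs, 0.43 for the first samples and 0.29 for the second.

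miR-146b belongs to a family that in mammals damps Toll-like receptor and NF-kB signalling through IRAK1 and TRAF6. Its hairpin lies at chr6:24570060-24570164 in the chicken genome build gga3. miR-146b had 3041 and 3534 PMMR in the duck libraries, against 263 and 146 PMMR in the chicken libraries. It was 11.6-fold higher in duck in the first samples and 24.2-fold higher in the second. The log2 difference was 4.06 ± 0.47 (SE, n = 2 samples each; limma adjusted p = 1.67e-07), and 3.73 after median-centring (adjusted p = 5.31e-05). Its relatives with the same seed, miR-146a and miR-146c, were the most and the third most abundant of all miRNAs. miR-146a had 57560 and 60226 PMMR in duck, against 44126 and 45759 PMMR in chicken, a log2 difference of 0.39 ± 0.49 that did not pass limma (adjusted p = 0.669) and lay near the general shift. As counted, the strong difference of miR-146b was thus one between species in a minor member of an abundant seed family. Its sequence is 3 mismatches from the nearest other on the list. Whether reads were shared with miR-146a or miR-146c was not tested.

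miR-34c is a member of the p53-induced miR-34 family, known in vertebrates for its part in the formation of multiciliated cells. Its hairpin lies at chr24:5685637-5685710 (gga3). miR-34c had 530 and 167 PMMR in duck, against 13.2 and 6.46 PMMR in chicken, where the 2 libraries held 58 and 40 reads of it. It was 40.0-fold higher in duck in the first samples and 25.8-fold higher in the second, with a log2 difference of 4.85 ± 0.77 (limma adjusted p = 4.78e-05; 4.53 after median-centring, adjusted p = 0.0017). Without the first duck sample this call was lost. miR-34a, with the same seed, was low in all 4 libraries, with 9.49 and 4.0 PMMR in duck, against 11.4 and 4.20 PMMR in chicken.

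miR-30a-5p was the most abundant of the 13, with 11160 and 12594 PMMR in duck, against 3015 and 3701 PMMR in chicken. The log2 difference was 1.83 ± 0.43 (limma adjusted p = 0.00832). In mammals the miR-30 family is known from kidney and other epithelia, where Snai1 is a target. Of the 10 listed strands of the family miR-30a-5p alone passed limma. The libraries did not overlap for 3 of the 10, all higher in duck, where 38.7% of all miRNAs were higher without overlap, and the median log2 difference was 0.52, against 0.35 over all miRNAs. miR-30b pointed the other way, with 43.0 and 90.6 PMMR in duck, against 69.8 and 239 PMMR in chicken. It passed only with the replicate block (log2 difference -1.04, limma adjusted p = 0.0291).

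miR-33, which in birds and mammals sits in an intron of the sterol regulator SREBF2 and in mammals represses the cholesterol exporter ABCA1, had 193 and 140 PMMR in duck. In chicken it had 37.7 and 8.55 PMMR. The log2 difference was 3.10 ± 0.78 (limma adjusted p = 0.0087). The species did not overlap, and as a ratio the 2 chicken libraries differed from each other by more than the 2 duck libraries did.

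The miR-23, miR-27 and miR-24 clusters held 1 call, miR-27a, and mostly lay above chicken in duck. miR-27a, studied in mammals as a brake on adipocyte differentiation, had 1530 and 1417 PMMR in duck, against 473 and 376 PMMR in chicken (log2 difference 1.80 ± 0.46, limma adjusted p = 0.00871). Its near-identical relative miR-27b had 2873 and 2422 PMMR in duck, against 1498 and 1083 PMMR in chicken, and did not pass without the block (log2 difference 1.05 ± 0.44, limma adjusted p = 0.137). miR-23a, miR-23b and miR-24 had log2 differences of 1.52, 0.98 and 0.91. For 5 of the 6 listed strands of these clusters the libraries did not overlap, all higher in duck and still so after median-centring. Over all miRNAs the count higher without overlap was 72, and 48 after median-centring. The median log2 difference of the 6 was 1.01, against 0.35 over all miRNAs. With the replicate block all 5 passed limma, where 23.1% of all miRNAs passed as higher in duck. The block leaves their log2 differences unchanged, so this is no separate support. miR-23a and miR-23b, like miR-27a and miR-27b, lie within 2 mismatches of each other and may not be separate measurements.

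The other miRNAs that passed as higher in duck were miR-1552-5p, miR-1662, miR-200a and miR-19a*. miR-1552-5p had 689 and 366 PMMR in duck, against 137 and 71.0 PMMR in chicken (log2 difference 2.34 ± 0.59, limma adjusted p = 0.0087). miR-1662 had 43.6 and 44 PMMR in duck, against 9.13 and 2.74 PMMR in chicken, which rest on 40 and 17 reads (log2 difference 2.86 ± 0.82, limma adjusted p = 0.0258). Both are annotated in the chicken, and their hairpins are listed on the unplaced sequence and on chromosome 2 of gga3. After median-centring the 7 calls other than miR-146b and miR-34c among the higher ones had adjusted p of 0.0612 to 0.192 by limma. Each of the 9 higher calls except miR-146b was lost in at least 1 of the fits that left out a library.

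miR-184 had the lowest adjusted p of the 4 miRNAs that were lower in duck, while miR-3529 had the larger log2 difference. It is known in the mouse as a miRNA of the lens and the corneal epithelium, and its hairpin lies at chr10:22146245-22146318 (gga3). miR-184 had 246 and 190 PMMR in duck, against 1430 and 1897 PMMR in chicken. It was 5.82-fold lower in duck in the first samples and 9.99-fold lower in the second, with a log2 difference of -2.92 ± 0.48 (limma adjusted p = 5.6e-05; -3.25 after median-centring, adjusted p = 0.000231). It was one of the 2 miRNAs, with miR-146b, that passed in every fit of the HH20 libraries, those without a library included.

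miR-3529 had 13.6 and 9.83 PMMR in duck, against 120 and 105 PMMR in chicken (log2 difference -3.17 ± 0.77, limma adjusted p = 0.0087). Its hairpin, at chr10:14823529-14823619 (gga3), lies inside one of the 3 hairpins listed for miR-7, at chr10:14823525-14823623. miR-7, a miRNA of neurons and endocrine cells, had 781 and 376 PMMR in duck, against 350 and 459 PMMR in chicken. The species were thus apart for miR-3529 and overlapped for miR-7, whose reads come from its 3 hairpins together.

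miR-215, known with miR-192 from gut and kidney, had 26.1 and 31.4 PMMR in duck, against 249 and 169 PMMR in chicken (log2 difference -2.80 ± 0.70, limma adjusted p = 0.0087). miR-192 has the same seed and overlapped, with 11.6 and 47.1 PMMR in duck, against 6.62 and 68.4 PMMR in chicken. miR-2970 had 63.1 and 45.0 PMMR in duck, against 373 and 259 PMMR in chicken (log2 difference -2.52 ± 0.64, limma adjusted p = 0.0087). For miR-184, miR-3529, miR-215 and miR-2970 the lowest chicken library was more than 4 times the highest duck library, and the calls held with median-centring, with no intensity trend and with voom. Without the first or the second duck sample miR-3529, miR-215 and miR-2970 no longer passed, and without the first chicken sample miR-215 and miR-2970 did not.

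**Figure D2:**
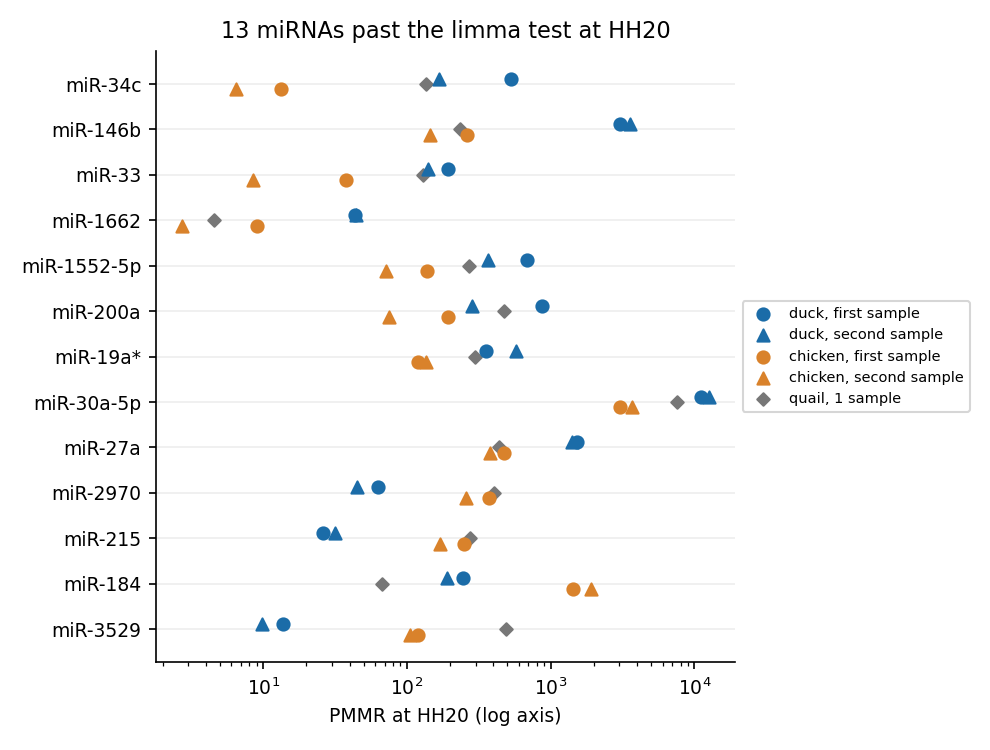
PMMR of the 13 miRNAs past the limma test at HH20 on a log axis, with the duck libraries in blue, the chicken libraries in orange and the quail library in grey; circles are first samples and triangles second samples. In each row the blue and orange points are apart, from miR-34c at the top (530 and 167 PMMR in duck, against 13.2 and 6.46 PMMR in chicken) to miR-3529 at the bottom (13.6 and 9.83 PMMR in duck, against 120 and 105 PMMR in chicken).

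Among miRNAs that missed the test, the next in the lower direction were miR-3535, miR-2964, miR-125b, miR-2954 and miR-1388. miR-3535 had 198 and 241 PMMR in duck, against 524 and 636 PMMR in chicken, and was 2.64-fold lower in duck in both the first and the second samples (log2 difference -1.40 ± 0.52, limma adjusted p = 0.11). miR-125b, a vertebrate relative of the worm timing miRNA lin-4, had 3013 and 2383 PMMR in duck, against 5816 and 4674 PMMR in chicken (log2 difference -0.96 ± 0.43, limma adjusted p = 0.171). All 5 passed limma with the replicate block, with adjusted p of 0.000595 to 0.0176, where 6.45% of all miRNAs passed as lower. The 5 were picked by their t in these same libraries, and the block leaves their log2 differences unchanged. Their passing is thus no separate support. In the higher direction the next were miR-92a-2*, miR-101, let-7k and miR-1b. miR-101, which represses the histone methyltransferase EZH2 in mammals, had 7237 and 6981 PMMR in duck, against 3513 and 2646 PMMR in chicken (log2 difference 1.22 ± 0.43, limma adjusted p = 0.0891). miR-1b was at 3 reads in the second chicken library, so that no fold is given for it.

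The 10 most abundant miRNAs of the HH20 libraries were miR-146a, miR-143, miR-146c, miR-21, miR-363, miR-20b, miR-103, miR-126, miR-148a and miR-16. They took 55.0% and 54.3% of the reads on listed miRNAs in duck, against 60.9% and 56.5% in chicken. Among the 10, miR-146a and miR-146c lie within 2 mismatches of each other, so their reads may be shared. None of the 10 passed limma, and for 5 of them the libraries did not overlap, as for 48.9% of all miRNAs. miR-16, which restrains the cell cycle through D-type cyclins in mammals, had 31950 and 26935 PMMR in duck, against 16928 and 8994 PMMR in chicken (log2 difference 1.25 ± 0.47, limma adjusted p = 0.11; 0.000437 with the replicate block). miR-143 had 40078 and 45335 PMMR in duck, against 37422 and 54488 PMMR in chicken, with overlap and a log2 difference of -0.08 ± 0.49.

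The miRNAs were also grouped by family, cluster and cell type in 26 lists with 136 members in all. Each list is described by its median log2 difference of duck minus chicken, beside 0.35 over all miRNAs, and its members without overlap stand beside the 38.7% of all miRNAs that were higher in duck and the 10.2% that were lower. Of the proliferation-linked groups, the miR-15/16 family had a median of 1.13 over 6 strands. Its libraries did not overlap for 5 of them, all higher in duck, and none passed limma without the block. Each of the 5 lies within 2 mismatches of another of them, so they may not be separate measurements. The miR-17-92 cluster and its paralogues had 19 strands, a median of 0.56, 9 higher in duck without overlap and 1 call, miR-19a*. After median-centring 4 of the 19 strands were higher without overlap, while the count over all miRNAs fell from 72 to 48. The 4 are thus no larger a share of the list than the 48 are of all miRNAs. miR-19a* had 355 and 578 PMMR in duck, against 119 and 135 PMMR in chicken (log2 difference 1.83 ± 0.57, limma adjusted p = 0.041). The log2 differences of the main strands of the cluster ran between 0.0070 for miR-20b and 1.18 for miR-19a, on both sides of the general shift.

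The let-7 family, which marks the advance of differentiation in animals, had a median of 0.53 over 10 strands, with let-7f and let-7k higher in duck without overlap. let-7f had 13097 and 6518 PMMR in duck, against 4782 and 3843 PMMR in chicken. The miR-302 cluster of early embryonic cells had a median of 0.34 over 4 strands. The miR-130, miR-301 and miR-454 group had a median of 0.31 over 9 strands, miR-181 had 0.34 over 4, and the 2 miR-10 members of the Hox clusters had 0.37 at levels of 2.48 to 29.4 PMMR.

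Groups that stood under the general shift included the 7 strands of miR-99, miR-100 and miR-125 (median -0.05), the 4 of miR-143 and miR-145 (-0.34) and the 3 of miR-460 (-0.63). The 6 members of the list specific to birds had a median of -0.53. In 3 of these 6 the duck libraries lay under the chicken libraries, as for miR-2954 (4869 and 4840 PMMR in duck, against 7016 and 11849 PMMR in chicken). miR-1559 was the exception, with 768 and 567 PMMR in duck, against 344 and 217 PMMR in chicken. None of the 6 passed limma without the block.

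The lists most linked to facial mesenchyme had medians below the general shift. miR-221, miR-221* and miR-222 had a median of 0.19 as deposited and -0.14 after median-centring. miR-222 is known to repress the cell cycle inhibitor p27, and miR-221 has the same seed. miR-222 had 1322 and 1204 PMMR in duck, against 849 and 952 PMMR in chicken (log2 difference 0.49 ± 0.45, limma adjusted p = 0.585). The 4 cartilage miRNAs, strands of miR-140 and miR-455, had a median of 0.07, and the 2 miR-199 strands had 0.04, both below 0 after median-centring. The 2 measured members of the miR-215 family, miR-192 and miR-215, had a median of -1.35, and the 2 members of the miR-34 family had 2.35, each set by the 1 member that passed.

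**Figure D3:**
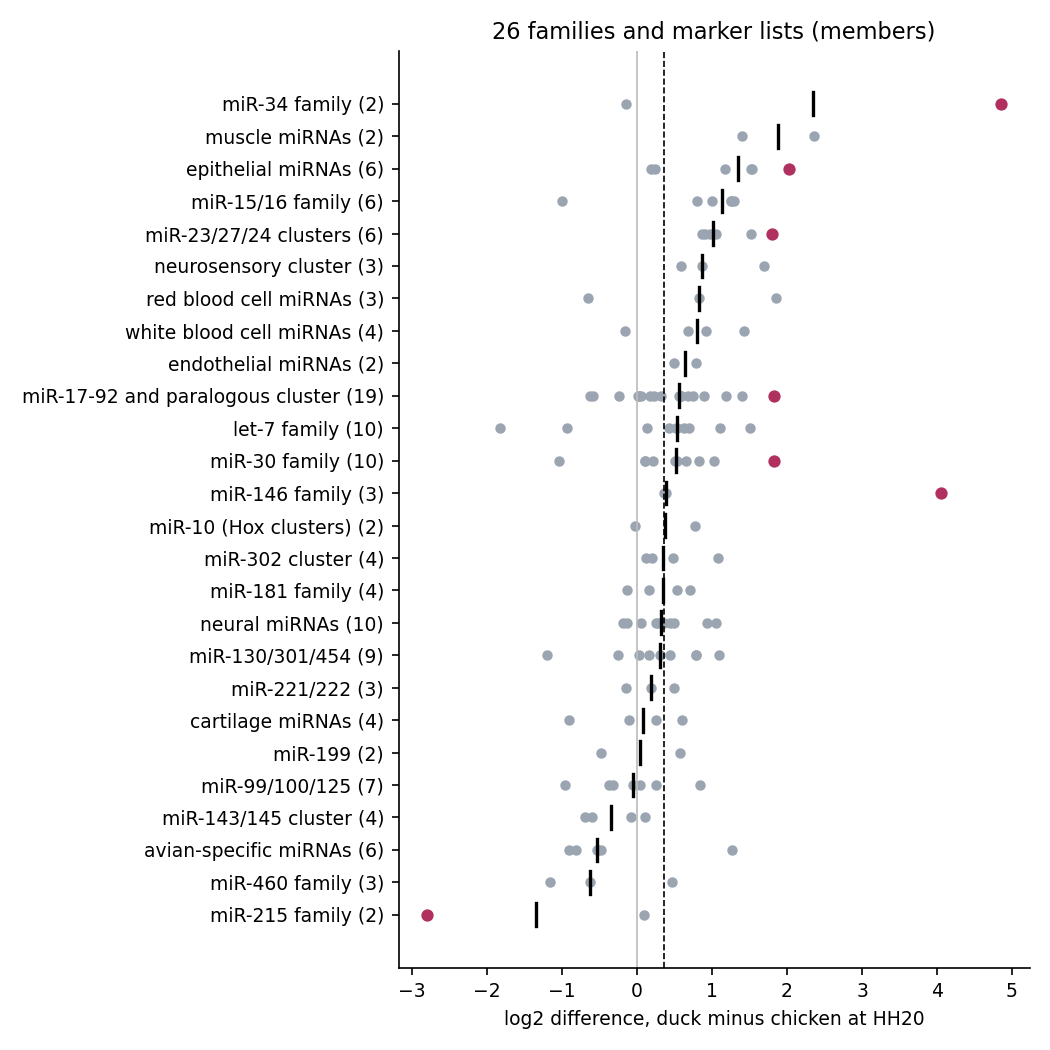
Each row is 1 of the 26 lists with its number of members, and each point is the log2 difference of duck minus chicken of 1 member at HH20; red points passed limma, the black bar is the median of the list and the dashed line is the median of all miRNAs (0.35). The medians run from 2.35 for the miR-34 family to -1.35 for the miR-215 family (miR-192 and miR-215).

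Among the markers listed for other cell types miR-200a alone passed limma without the block. miR-184, named above from lens and corneal epithelium, was not on these lists and passed as lower in duck. miR-200a, which with miR-200b and miR-429 represses ZEB1 and ZEB2 and so keeps cells epithelial, had 869 and 284 PMMR in duck, against 194 and 75.2 PMMR in chicken (log2 difference 2.03 ± 0.62, limma adjusted p = 0.0372). Of the 6 epithelial miRNAs miR-200a passed limma and 3 were higher in duck without overlap (38.7% of all miRNAs were), with a median of 1.34. After median-centring 2 of the 6 were higher without overlap, while the count over all miRNAs fell from 72 to 48. The 6 summed to 2293 and 718 PMMR in duck, against 665 and 408 PMMR in chicken, and none was at 0 in any library. miR-203, miR-205a and miR-31, also known from surface epithelium, overlapped between the species. The first samples held more miR-200a than the second in both species.

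The neurosensory cluster of miR-183, miR-96 and miR-182, known from hair cells and other placode-derived cells, was higher in duck without overlap in all 3 members, and in 2 of the 3 after median-centring. None of the 3 passed limma without the block. Of all miRNAs 38.7% were higher in duck without overlap, which was 72 miRNAs, against 48 after median-centring. Its median was 0.87 and it summed to 7331 and 7499 PMMR in duck, against 3994 and 5334 PMMR in chicken. The 7 neural markers summed to 1777 and 1901 PMMR in duck, against 1079 and 1570 PMMR in chicken. The list of 10 neural strands, which adds partner strands, had a median of 0.31, and -0.01 after median-centring. Of the 2 red blood cell markers, miR-451 had 164 and 206 PMMR in duck, against 185 and 455 PMMR in chicken, and miR-144 had 21.9 and 32.8 PMMR in duck, against 4.79 and 9.36 PMMR in chicken. With miR-144* the list had a median of 0.83. The 4 white blood cell markers summed to 477 and 691 PMMR in duck, against 278 and 333 PMMR in chicken (median 0.80, and 0.47 after median-centring). Only 1 of the 4, miR-142-3p, was higher in duck without overlap, where 38.7% of all miRNAs were. It had 387 and 502 PMMR in duck, against 201 and 132 PMMR in chicken. miR-223 had a log2 difference of -0.16.

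The endothelial pair miR-126 and miR-126* was higher in duck without overlap before but not after median-centring, and summed to 40678 and 35426 PMMR in duck, against 30275 and 16407 PMMR in chicken (median 0.64). The muscle markers miR-1a and miR-1b summed to 393 and 147 PMMR in duck, against 172 and 43.6 PMMR in chicken (median 1.88). The liver marker miR-122 had 20.5 and 49.5 PMMR in duck, against 19.4 and 50.5 PMMR in chicken. The smooth muscle markers miR-143 and miR-145 summed to 40186 and 45715 PMMR in duck, against 37596 and 55035 PMMR in chicken. None of the markers of these other types was at 0. The part of other cell types in the differences was not tested, and in such bulk samples more cells of a type and more RNA per cell cannot be told apart.

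Ratios between the strands of a hairpin are free of the scaling of the library, and they were available for 40 pairs of strands. Some pairs join several hairpins, as for miR-199, which has 2 listed hairpins. Others, as miR-30a-5p, miR-30a-3p and miR-100, lie within 2 mismatches of a miRNA of another hairpin. The part of such related hairpins in the ratios was not tested. The ratio did not overlap between duck and chicken for 12 of the 40 (30%). The levels of 48.9% of all miRNAs did not overlap in either direction. A full separation of 2 against 2 samples has an exact permutation p of 0.333. The 30% is thus no larger than would be met without a difference, and the 12 ratios are given as description only. It leaned to the strand named first in duck for 7 of these and in chicken for 5. miR-199, a mesenchymal miRNA that uses both strands, had a log2 ratio of miR-199 to miR-199* of -0.99 and -0.54 in duck, against -2.16 and -1.47 in chicken. miR-199 itself was higher in duck without overlap (2898 and 2553 PMMR, against 1521 and 2217 PMMR in chicken) while miR-199* was lower (5740 and 3724 PMMR in duck, against 6804 and 6161 PMMR in chicken). Neither strand passed limma.

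The hairpins of miR-30a and miR-19a each gave a miRNA that passed limma, and their ratios did not overlap. The log2 ratio of miR-30a-5p to miR-30a-3p was 1.32 and 0.54 in duck, against 0.43 and -0.93 in chicken. That of miR-19a to miR-19a* was 0.53 and 0.37 in duck, against 1.34 and 0.86 in chicken. For miR-100 the log2 ratio to miR-100* was 6.56 and 6.35 in duck, against 7.80 and 7.60 in chicken, and for miR-301 the ratio to miR-301* was 2.29 and 2.39 in duck, against 1.24 and 1.36 in chicken. In the HH25 libraries 7 of the 12 ratios again did not overlap and lay on the same side, and 0 lay on the other side, while of all 40 ratios 50% did not overlap at HH25.

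**Figure D4:**
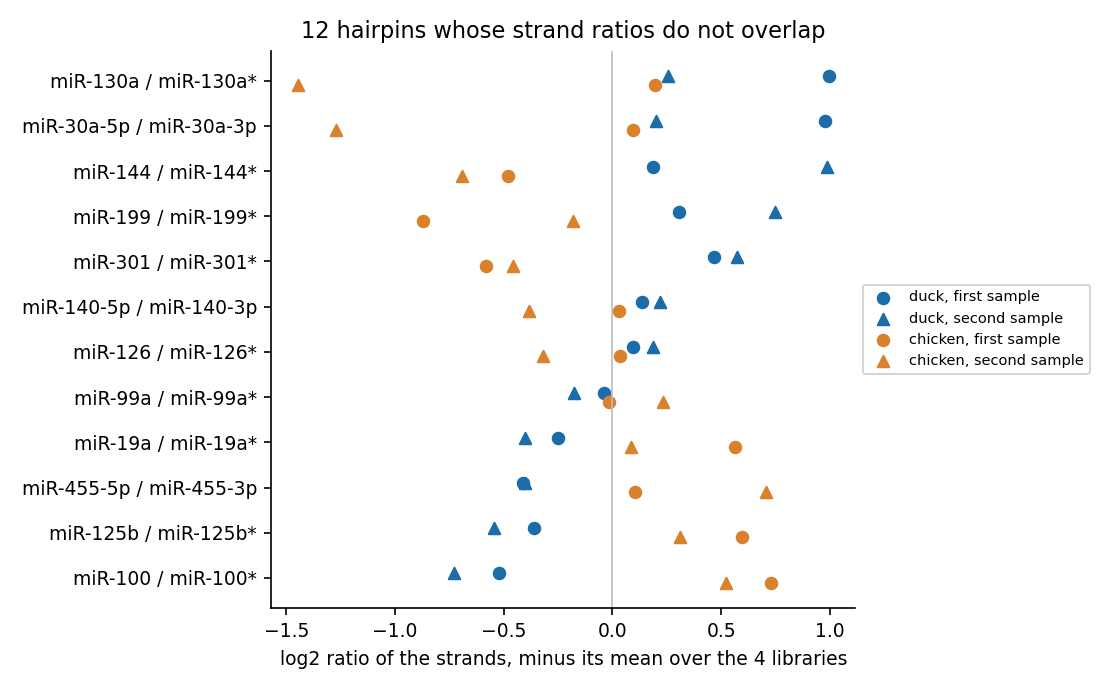
For the 12 strand pairs whose ratios do not overlap at HH20, the log2 ratio of the first-named to the second-named strand is plotted per library after taking off its mean over the 4 libraries; duck is blue, chicken orange, circles first samples and triangles second samples. The blue points lie to the right of the orange ones for 7 pairs and to the left for 5.

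Libraries of HH25, when the faces have begun to differ, did not enter the main fit of HH20. They come from other embryos at a later stage. Stage and embryos change together, so they cannot show whether a difference recurs in other embryos of HH20. At HH25 the duck and chicken libraries did not overlap for 40 miRNAs that were higher in duck (21.5%) and 31 that were lower (16.7%). Of the 13 miRNAs that passed at HH20, 5 of the 9 higher ones were again higher without overlap at HH25 and 3 of the 4 lower ones again lower, and 0 lay on the other side. The first chicken library of HH25 stood apart from the second, with 315 PMMR of miR-199 and miR-199* in sum, against 16961 PMMR. Without it, 12 of the 13 lay on the same side of the second chicken sample, beside 91 of all miRNAs with duck above it and 59 with duck below it.

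By limma on the HH25 libraries alone 0 miRNAs passed, with 19 at an unadjusted p under 0.05, and the 13 had adjusted p of 0.281 to 0.991. miR-146b did not overlap at HH25, with 1394 and 2752 PMMR in duck, against 43.5 and 276 PMMR in chicken. miR-3529 had 8.50 and 9.73 PMMR in duck at HH25, against 90.2 and 76.0 PMMR in chicken. miR-27a and miR-1552-5p were likewise apart at both stages, and miR-215 and miR-2970 were again lower in duck. For miR-215 the quantitative RT-PCR of the study, on second biological samples, bore out the difference between duck and chicken at HH20 only. The study states that the other miRNAs it tested in this way kept their sequencing trends. It offers low read numbers as a possible reason for miR-215. miR-184 was not apart at HH25, with 802 and 598 PMMR in duck, against 271 and 1890 PMMR in chicken. miR-34c at HH25 had 772 and 422 PMMR in duck, against 467 and 4.22 PMMR in chicken, where the high value is that of the first chicken library. By a limma interaction test over the 8 samples, the difference between duck and chicken changed from HH20 to HH25 for 0 miRNAs, with 1, miR-184, at an unadjusted p under 0.05. Without the second chicken sample of HH25 that count was 16, in a fit where chicken at HH25 has 1 sample.

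**Figure D5:**
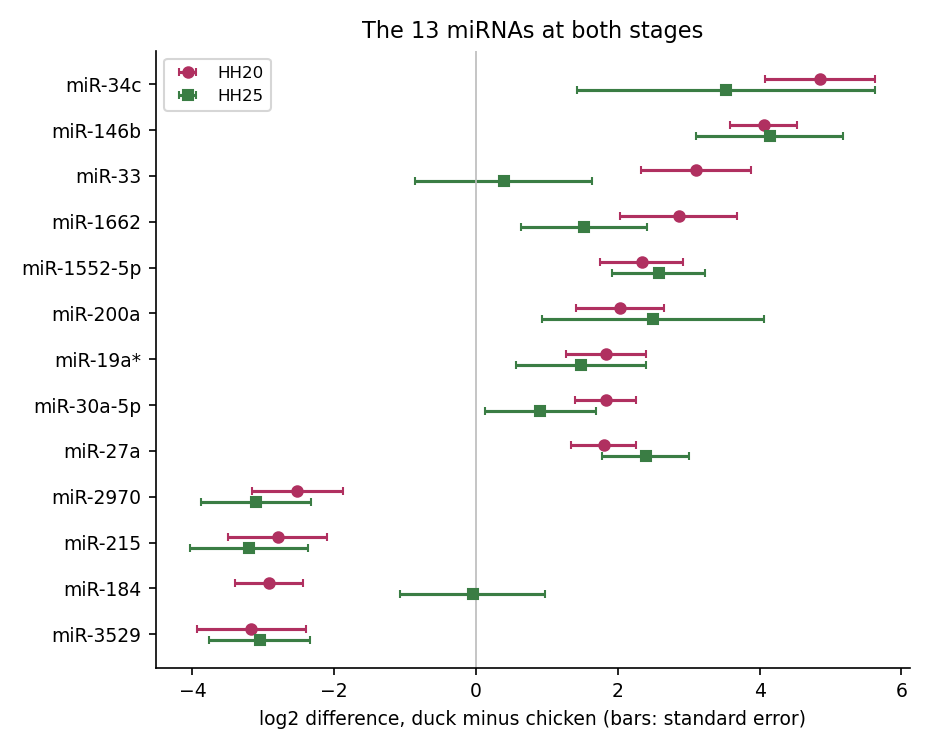
The log2 difference of duck minus chicken of the 13 miRNAs at HH20 (red circles) and at HH25 (green squares), each from a limma fit of the 4 libraries of that stage, with bars of 1 standard error. The HH25 bars are the wider ones for most miRNAs, miR-184 and miR-33 lie near 0 at HH25, and miR-146b lies near 4.06 at both stages.

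Quail, a close relative of the chicken with a similar beak, has a single library at HH20, so that its values carry no error between samples. On the log2 scale the quail value lay nearer to the duck mean for 7 of the 13 miRNAs and nearer to the chicken mean for 6. miR-146b (236 PMMR), miR-27a (434 PMMR), miR-1662 (4.55 PMMR), miR-215 (276 PMMR), miR-2970 (401 PMMR) and miR-3529 (489 PMMR) were nearer to chicken in quail. miR-34c (136 PMMR), miR-30a-5p (7588 PMMR), miR-33 (128 PMMR), miR-200a (474 PMMR), miR-19a* (296 PMMR) and miR-1552-5p (269 PMMR) were nearer to duck, and so was miR-184, which at 67.2 PMMR was lower in quail than in either species.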

How the data were processed

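Small RNAs of FNP mesenchyme from 2 duck and 2 chicken samples at HH20 were compared, with the HH25 and quail libraries beside them. Reads were trimmed by the authors and assigned with miRanalyzer (release 1), allowing 0 to 2 mismatches, to mature sequences from miRBase (release 16). A miRNA was listed if any library exceeded 15 PMMR. The deposited signal is PMMR per miRNA, followed by the total reads, which were left out of the miRNA values. Multiplied by it, 100% of the values came out as whole reads to within 0.0051 PMMR, the rounding of the files. A floor of 3 reads is worth 0.324 to 0.889 PMMR in these libraries. Hairpin positions are those listed by the study on gga3, and genes around them were not annotated here.

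On log2(PMMR + 1), two-sided moderated tests of limma (version 3.58.1, R version 4.3.3) used an intensity trend. The Benjamini-Hochberg threshold was 0.05 across 186 miRNAs. A log2 difference on this scale understates the change of low miRNAs. An exact permutation test of 2 against 2 samples cannot give a two-sided p below 0.333, so limma was used for single miRNAs too, and its p-values lean on the spread shared across miRNAs. Tables were made with Python 3.11.15 and pandas 2.3.3, and drawn with matplotlib 3.10.9. The fit without the block was checked on simulated libraries with independent noise. These held no shared effect of sample number and no general shift between species, so the check does not cover them.

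First samples pooled 40 and second samples 5 embryos in both species, and the first samples used RNA of an earlier study. Whether same-numbered duck and chicken samples were handled together is not given in the sources used here. Across miRNAs the second minus first sample of duck correlated with that of chicken (r = 0.61, Spearman 0.60), and the block is printed where it moves a count. For chicken HH25, second sample, its 2 runs entered as their mean.

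The miRNAs named are the 12 with the largest moderated t in each direction among those without overlap and above 15 PMMR, the members of the 26 lists, and the 10 most abundant. These lists and the comparison were chosen with earlier results of these data known. Alternatives were pseudocounts of 0.1 and 10, median-centring, a mean of at least 15 PMMR, no trend, limma voom with trimmed mean scaling on the recovered reads, a fit with the HH25 samples, the block, and leaving out each library.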

Additional observations from a re-analysis of the deposited data

Results flagged for a closer look

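Of the miRNAs named, 2 did not overlap between duck and chicken at either stage but lay in opposite order at HH20 and HH25. The order at HH25 rests on the mean of the 2 runs of the second chicken sample. miR-181a* had 566 and 310 PMMR in duck, against 237 and 277 PMMR in chicken at HH20, and 581 and 600 PMMR in duck, against 1162 and 608 PMMR in chicken at HH25. The 2 runs averaged at HH25 had 529 and 687 PMMR of miR-181a*, so that both duck values lay between the runs. Its log2 difference of duck minus chicken changed by -1.22 between the stages. miR-455-5p, a strand of a cartilage-linked hairpin, had 83.3 and 71.5 PMMR in duck, against 126 and 168 PMMR in chicken at HH20, and 118 and 110 PMMR in duck, against 53.3 and 107 PMMR in chicken at HH25. The 2 runs had 109.45 and 104.21 PMMR of miR-455-5p, against 109.6 PMMR in the second duck sample of HH25. Its log2 difference changed by 1.49. Neither change passed the limma interaction test (adjusted p = 0.996 for both).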

How the results depend on the processing

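The count of 13 was 6 with median-centring, 8 with no intensity trend and 8 with voom, which called 4 higher and 4 lower in each of these last 2. It was 0 in the fit with the HH25 samples. The replicate block gave 55, and the replicate block with median-centring, chosen after seeing the data, gave 41 (23 higher and 18 lower). Both kept all 13, but the block itself leaves log2 differences unchanged, so this is no separate support. Leaving out a library gave 2 to 16 calls: 2 without the first duck sample, 4 without the second duck sample, 7 without the second chicken sample and 16 without the first chicken sample. Pseudocounts of 0.1 and 10 and the mean of at least 15 PMMR gave 11 to 13. miR-146b and miR-184 passed in 12 of 13 alternatives. The median log2 difference was 0.0297 when PMMR was rescaled to the reads on listed miRNAs. The miRNAs at least 2-fold apart in both sample numbers were 25 higher and 6 lower as deposited, and 17 higher and 12 lower with median-centring. The interaction count of 0 remained 0 with median-centring, the replicate block, each run alone and 7 of the 8 samples left out, and was 16 without the second chicken sample at HH25, so leaving out samples gave 0 to 16. No named miRNA with a call turned direction. The edgeR and DESeq2 alternatives were not run. Of tests on the recovered reads, voom alone was run.

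With 2 samples per group the p-values do not measure the spread between single embryos. They rest on the spread between pools and, mostly, on the spread shared across miRNAs. In the fit without the block each miRNA has 2 residual degrees of freedom, against 29.4 for the shared spread. The spread between pools includes any effect of sample number, as first and second samples differed in pool size. Second minus first sample correlated between duck and chicken across miRNAs (r = 0.61). Low miRNAs have the widest errors: miR-1662 rests on 17 reads in 1 chicken library. Counting error covers reads only, as no molecular identifiers were used.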
